A study of Mus musculus with 3 samples.

Results

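Exosomes of the mouse melanoma line B16 were compared with exosomes of the mouse skin line JB6 by the share that each mature microRNA (miRNA) took of the miRNA reads. Of 1915 mature miRNAs listed for each library, the 300 with 30 or more reads over both exosome libraries were compared. B16 is labelled as melanoma and as strain C57BL/6J, JB6 as normal and as strain BALB/c, and skin is the tissue given for both. Exosomes had been collected by ultracentrifugation and their RNA sequenced as small RNA. Each line gave 1 exosome library and no replicate check exists for any value below. Line, strain and tumour state cannot be told apart. A library of B16 cells is quoted beside some results. No JB6 cell library was used here.

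A miRNA is a short RNA that guides an Argonaute protein to messenger RNAs and lowers their output. Its target choice depends mainly on the seed, the stretch near its 5′ end, so miRNAs that share a seed form a family with overlapping targets. Each hairpin precursor holds a 5p and a 3p arm, of which 1 is usually kept and the other degraded. Exosomes are small vesicles that cells release, and they carry miRNAs between cells. In melanoma they have been studied as carriers of signals from tumour to host cells.

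The mature sequences below are those on which the comparison turned. The capitals mark the seed, bases 2 to 8 counted from 1 at the 5′ end. They come from RefSeq for mouse build GRCm38.p6, in which 258 of the 300 miRNAs were matched. The first set is of the let-7 family, whose make-up differed between the exosome libraries.
let-7b-5p: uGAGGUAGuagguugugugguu
let-7c-5p: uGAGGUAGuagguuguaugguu
let-7a-5p: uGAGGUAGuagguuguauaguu
let-7f-5p: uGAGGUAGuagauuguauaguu
let-7g-5p: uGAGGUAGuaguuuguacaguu
let-7i-5p: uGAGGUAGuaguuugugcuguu

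The next set holds the 3 seeds, among miRNAs with a sequence, with 1 member higher and another lower in B16 exosomes.
miR-148a-3p: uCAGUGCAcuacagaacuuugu
miR-148b-3p: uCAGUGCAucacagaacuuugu
miR-152-3p: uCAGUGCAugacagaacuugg
miR-92a-3p: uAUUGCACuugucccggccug
miR-25-3p: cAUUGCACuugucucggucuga
miR-32-5p: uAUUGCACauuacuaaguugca
miR-92b-3p: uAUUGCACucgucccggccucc
miR-146a-5p: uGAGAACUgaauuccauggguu
miR-146b-5p: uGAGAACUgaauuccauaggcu

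The third set holds leading single differences, with miR-690, miR-211-5p, miR-103-3p and miR-26b-5p higher in B16 exosomes and miR-615-3p lower, and the arms of 2 hairpins whose balance turned over.
miR-690: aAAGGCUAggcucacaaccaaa
miR-211-5p: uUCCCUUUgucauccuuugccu
miR-103-3p: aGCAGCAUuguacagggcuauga
miR-26b-5p: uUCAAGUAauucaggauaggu
miR-615-3p: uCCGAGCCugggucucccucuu
let-7d-5p: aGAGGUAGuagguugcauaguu
let-7d-3p: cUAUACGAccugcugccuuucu
miR-423-5p: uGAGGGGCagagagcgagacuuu
miR-423-3p: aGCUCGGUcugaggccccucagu

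The libraries differed 98.4-fold in depth, with 45677 miRNA reads in B16 exosomes and 4495956 in JB6 exosomes. No count from 1 to 9 was listed, so a listed 0 means 9 reads or fewer, a limit of 197 RPM for B16 exosomes and 2.002 RPM for JB6 exosomes. RPM here is a share scaled as the authors scaled theirs, but over miRNA reads alone. Above 0 were 149 miRNAs in B16 exosomes and 389 in JB6 exosomes. At the share of 10 B16 exosome reads, which is 219 RPM, the numbers were 149 and 93. In pooled RNA, fewer vesicles with a miRNA and fewer copies per vesicle cannot be told apart.

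The cargo of JB6 exosomes was concentrated in few species, and that of B16 exosomes was spread and resembled the B16 cells in rank. In JB6 exosomes 3 miRNAs held 50% or more of the miRNA reads, while it took 7 in B16 exosomes. miR-122-5p, the main miRNA of hepatocytes, and miR-148a-3p, abundant in liver and milk, together took 46.9% of the JB6 reads (exact Clopper-Pearson 95% interval 46.87 to 46.96) and 0.267% of the B16 exosome reads (0.222 to 0.319). Of the 10 most abundant miRNAs of B16 exosomes 2 were among the 10 of JB6 exosomes, miR-10b-5p and miR-143-3p, and all 10 were among the 10 of B16 cells. Intervals cover counting error only, since without molecular identifiers reads need not stand for separate molecules.

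The call higher or lower was given where a share differed at least 2-fold and 1 lay outside the exact 95% interval of the ratio. By this rule 94 of 300 miRNAs were higher in B16 exosomes (31.3%), 35 were lower (11.7%), 25 were neither and 146 were not resolved. Each of the 146 had a listed 0 in B16 exosomes. A lower call from such a 0 needed 1772 JB6 reads, whereas a higher call from a JB6 listed 0 needed 10 B16 reads, so the counts of higher and lower miRNAs do not stand on the same footing. Among the 102 miRNAs at 0.1% or more in either library, which depth could resolve in every case, 57 were higher (55.9%), 26 lower (25.5%) and 19 neither. The 163 miRNAs listed at 0 in B16 exosomes could not be called higher. Of the 131 listed in both libraries 88 were higher and 18 lower. This is the closer base for lists whose members are mostly listed in both.

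The direction of moderate differences depended on the total used. The median log2 ratio of the 131 miRNAs listed in both libraries was 2.62. The common shift of the log2 ratios was -2.37 under TMM factors and -2.66 under those of DESeq2. It was -0.54 when the 18 entries that lead either library were left out of the totals, and -3.89 under the authors' totals. TMM gave 61 higher and 97 lower, DESeq2 57 and 108, and the authors' totals 40 and 153. The total without liver, red blood cell and muscle miRNAs and miR-148a-3p gave 81 and 54, and that without the most abundant 82 and 44. Of the 94 higher miRNAs 40 kept their call under every scaling tried. All 35 lower ones kept theirs too, but every scaling tried moved all log2 ratios down. A lower call could therefore not be lost, and its stability was not tested. Ratios between members of a family, and between arms of a hairpin, do not depend on the total.

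**Figure D1:**
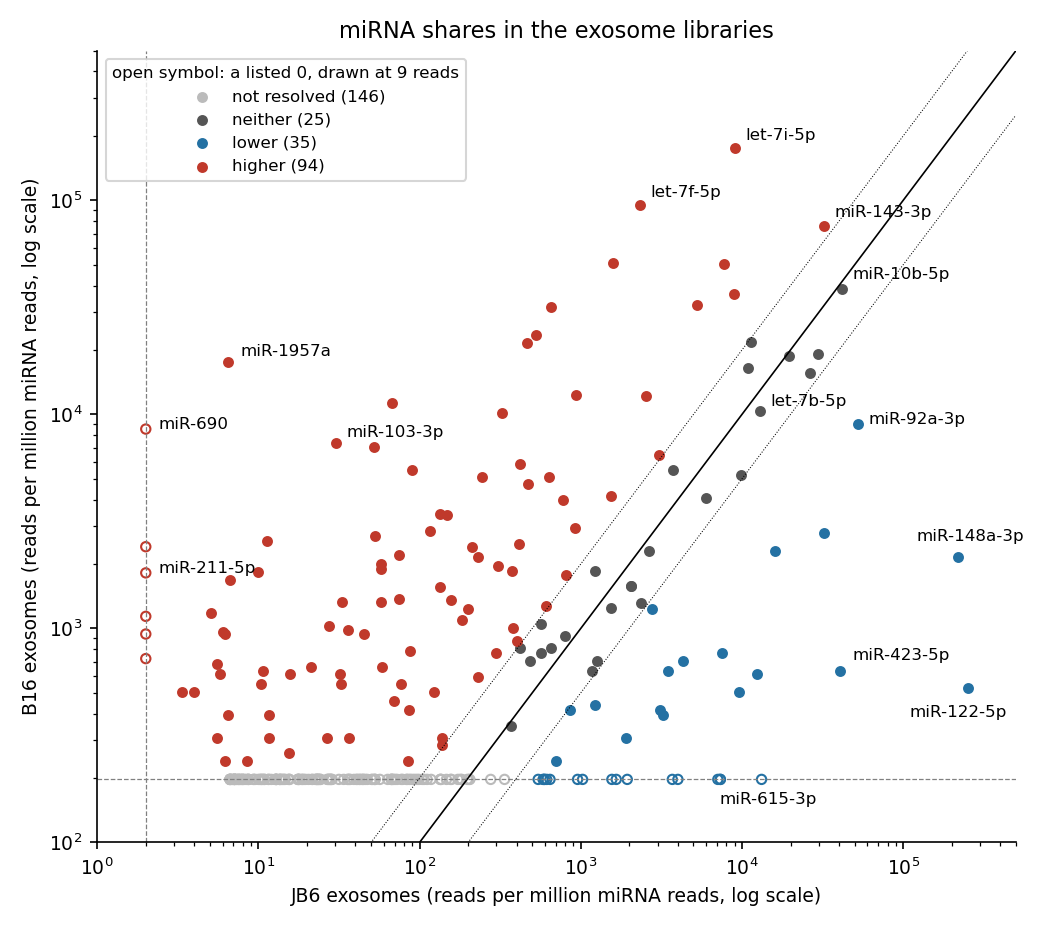
Share of each of the 300 miRNAs in JB6 exosomes (x axis) and B16 exosomes (y axis), in RPM of miRNA reads on log scales, coloured by call, with open symbols for a listed 0 drawn at 9 reads, the solid line at equal shares and dotted lines at 2-fold. The 146 grey points lie on the B16 exosome limit of 197 RPM, and miR-122-5p and miR-148a-3p stand alone at the lower right.

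The 94 higher miRNAs held most of the reads of B16 cells. Together they held 80.0% of the reads of B16 exosomes, 76.9% of those of B16 cells and 8.78% of those of JB6 exosomes, and 92 of them were listed above 0 in B16 cells. The 35 lower miRNAs held 2.41%, 3.61% and 71.5% in the same order, and 30 were listed in B16 cells. The 5 lower miRNAs listed at 0 there were miR-206-3p, miR-669c-5p, miR-543-3p, miR-676-3p and miR-486b-3p. The 25 that were neither held 17.2%, 17.4% and 18.99%. Across the 131 miRNAs listed in both exosome libraries Spearman's rho of the shares was 0.42 and Pearson's r of their logs was 0.44, where miRNAs are no independent replicates and the common total links them.

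miR-211-5p, read from an intron of the melanocyte gene Trpm1 (GRCm38 chromosome 7, 64205806 to 64205911, plus strand), was a marker of the melanocyte lineage among the higher miRNAs. Its 83 reads in B16 exosomes, or 1817 RPM, stood against a listed 0 for JB6, which makes its share at least 908-fold higher at 9 reads. The bound leaves out counting error, and the interval limit nearest to 1 was 456-fold. Its level in B16 cells was 2660 RPM. Of the other 5 miRNAs of the melanocyte list, miR-182-5p had 11 reads against 28 and was 38.7-fold higher (17.4 to 80.1), miR-183-5p was not resolved, and the others did not reach 30 reads. The summed list took 0.206% of B16 exosome reads (0.166 to 0.252) and 0.00249% of JB6 reads (0.00205 to 0.003).

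Markers of an epithelial or keratinocyte state were near 0 in JB6 exosomes and listed at 0 in B16 exosomes. JB6 is known as an epidermal line, and the 7 miRNAs of the list (the miR-200 family with miR-141 and miR-429, which hold cells epithelial, and miR-203 and miR-205 of keratinocytes) had 35 reads in JB6 exosomes, or 0.000778% (0.000542 to 0.00108), with 5 of the 7 listed at 0. In B16 exosomes all 7 were listed at 0, and in B16 cells they had 197 reads. The exosomes labelled as those of a normal skin line therefore carried few of the miRNAs that define skin epithelium. The mesenchymal list, by contrast, took 8.21% of B16 exosome reads (7.96 to 8.47) and 3.66% of JB6 reads (3.65 to 3.68), of which miR-143-3p was the largest. These sums count both of the identical miR-199a-3p and miR-199b-3p entries. Of the 6 members 3 were higher, 2 neither and 1 not resolved. Higher calls went to 31.3% of all 300 miRNAs and to 88 of the 131 listed in both libraries. With TMM, DESeq2 or the authors' totals 1 of the 6 was higher and 5 were lower.

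The leading higher miRNAs included 3 whose level in B16 cells was far below that in B16 exosomes. miR-690, whose hairpin lies in an intron of Fgf12 (chromosome 16, 28599935 to 28600043, minus strand), was read 390 times in B16 exosomes and listed at 0 for JB6. Its share was at least 4265-fold higher, with 2224-fold as the interval limit nearest to 1, and stood at 8538 RPM in B16 exosomes and 9.97 in B16 cells. miR-1957a had 804 reads against 29 and was 2729-fold higher (1885 to 4101), with 173 RPM in B16 cells. miR-677-5p, from an intron of Atp5b (chromosome 10, 128085286 to 128085363, plus strand), was read 110 times against a listed 0, at least 1203-fold higher, and at 21.1 RPM it too was low in the cells. These 3 kept their call under every scaling tried.

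The other leading higher miRNAs were common in B16 cells. miR-103-3p, which acts on insulin signalling and on Dicer, had 334 reads against 136, or 7312 against 30.2 RPM, and its share was 242-fold higher (197 to 297). Its relative miR-107-3p, which differs from it by the substitution G22C, had 23 against 18 and was 126-fold higher (64.9 to 247). The B16 cell levels of the pair were 5108 and 399 RPM.

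miR-26a-5p and miR-26b-5p, which restrain the cell cycle and Ezh2, were both higher. miR-26a-5p had 986 reads against 2094, 46.3-fold higher (42.9 to 50.02). miR-26b-5p, from an intron of Ctdsp1 (chromosome 1, 74394310 to 74394394, plus strand), had 323 against 233 and was 136-fold higher (115 to 162). The smaller member thus made up 24.7% of the pair in B16 exosomes (22.4 to 27.1) and 10.01% in JB6 exosomes (8.82 to 11.3). In B16 cells it made up 16.9%.

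Of the 7 neural-list miRNAs, 4 reached 30 reads, of which 2 were higher, 1 was neither and 1 was not resolved. Higher calls went to 31.3% of all 300 miRNAs and to 88 of the 131 listed in both libraries. TMM and DESeq2 each made 2 of the 4 higher and 1 lower, and the authors' totals 1 and 2. miR-9-5p, which governs neuronal differentiation, had 516 reads against 302 and was 168-fold higher (146 to 195). miR-129-5p had 232 against 1090 and was 20.9-fold higher (18.1 to 24.2), while miR-128-3p had 105 against 11908, a ratio of 0.868 (0.709 to 1.052). The list held 1.89% of B16 exosome reads and 2.82% of those of B16 cells, the line of neural-crest origin.

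Other higher miRNAs of known function were miR-7a-5p, a repressor of growth factor signalling, with 1070 reads against 2382 (44.2-fold, 41.1 to 47.5), and miR-16-5p, which slows cell division, with 123 against 238 (50.9-fold, 40.6 to 63.5). miR-184-3p, abundant in cornea and lens, had 252 against 406 (61.1-fold, 52.0 to 71.7), and miR-145a-5p, of smooth muscle and fibroblasts, had 117 against 51 (226-fold, 161 to 320). miR-210-3p, the miRNA of the hypoxia response, had 43 against 202 (20.9-fold, 14.7 to 29.2). The last kept its call under the scalings tried except the authors' totals, where it was neither.

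The lower miRNAs included members of the liver, red blood cell and muscle lists, and miR-122-5p had the largest lower ratio. It had 24 reads in B16 exosomes and 1129522 in JB6 exosomes, or 525 against 251231 RPM, and was 478-fold lower (321 to 746). miR-192-5p, of liver and gut, had 20 against 5492 and was 2.79-fold lower (1.80 to 4.57). The 4 liver miRNAs summed to 0.0963% against 25.2% of reads, and to 0.0686% in B16 cells.

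Red blood cell and muscle miRNAs were seen in JB6 exosomes alone of the 2 exosome libraries, at a B16 depth that allows up to 9 reads for each. miR-486a-5p and miR-486b-5p, whose counts were identical and which are uncertain as separate entries, had 32994 reads in the JB6 library and were listed at 0 for B16, at least 37.2-fold lower (limit nearest to 1, 19.6-fold). miR-451a, the defining miRNA of red blood cells, was at 135 RPM in JB6 exosomes and not resolved. miR-206-3p, of skeletal muscle, was at 3696 RPM in JB6 exosomes and listed at 0 in B16 exosomes and B16 cells, at least 18.8-fold lower (limit 9.88-fold). The red blood cell list took 1.48% of JB6 reads, but this sum counts both of the identical miR-486 entries, at 0.734% each. The muscle list took 0.372% of JB6 reads. The part of these tissue miRNAs in the other differences was not tested beyond the total that leaves them out.

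miR-148a-3p, from chromosome 6, 51269812 to 51269910, minus strand and outside annotated genes, had 98 reads against 979782, and was 102-fold lower (83.3 to 125). miR-423-5p, from an intron of Nsrp1 (chromosome 11, 77078064 to 77078172, minus strand), had 29 against 181078 and was 63.4-fold lower (44.2 to 94.7). miR-615-3p, which lies in a Hoxc gene, had a listed 0 against 59466 reads, at least 67.1-fold lower (limit 35.4-fold). miR-320-3p, which is made without Drosha, had 23 against 43269 and was 19.1-fold lower (12.7 to 30.2). In B16 cells these 4 stood at 103.3 RPM (miR-148a-3p), 926 RPM (miR-423-5p), 21.8 RPM (miR-615-3p) and 495 RPM (miR-320-3p).

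The listed reads of the imprinted clusters summed to a larger share in JB6 exosomes. In the Dlk1-Dio3 cluster, expressed from the maternal chromosome, 15 of 27 listed members reached 30 reads. Of these 1 was higher, 2 lower, 1 neither and 11 not resolved, beside 31.3% higher and 11.7% lower over all 300. The sum of the cluster was 46 reads in B16 exosomes (0.101%, 0.0737 to 0.134) and 24335 in JB6 exosomes (0.541%, 0.535 to 0.548). In B16 exosomes 25 of the 27 were listed at 0, where up to 9 reads each can be hidden. The B16 interval leaves these out, so the direction of this sum was not resolved. The lower ones were miR-409-3p, by at least 8.42-fold, and miR-543-3p, by at least 7.91-fold, with limits of 4.43-fold and 4.17-fold. miR-127-3p had 32 against 5685 reads, a ratio of 0.554 (0.379 to 0.783). miR-379-5p was 2.24-fold higher (1.22 to 3.79) on 14 reads, and its log2 ratio turned to -1.20 with TMM. With TMM or DESeq2 none of the cluster was higher and 9 were lower, and with the authors' totals 11 were lower. Over all 300 the lower calls under these scalings were 97, 108 and 153. In the Sfmbt2 cluster, a rodent cluster active in placenta, miR-669c-5p was at least 20.3-fold lower, and all 12 entries were listed at 0 in B16 exosomes and in B16 cells. The deeper JB6 library lists more members. At the share of 10 B16 exosome reads, the Dlk1-Dio3 cluster had 2 members in B16 exosomes and 3 in JB6 exosomes, and the Sfmbt2 cluster 0 and 1.

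**Figure D2:**
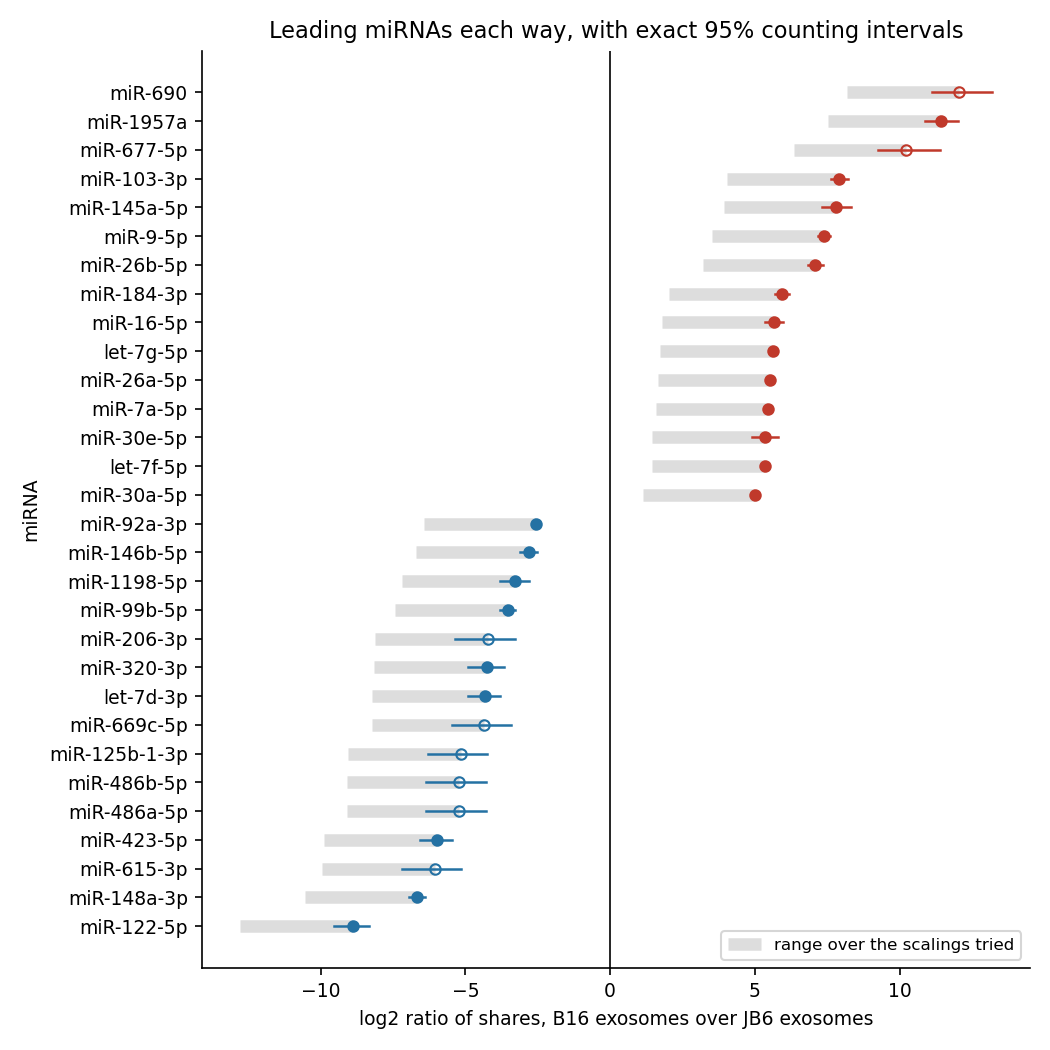
log2 ratio of shares in B16 over JB6 exosomes (x axis) for the 15 leading miRNAs each way, with exact 95% counting intervals as coloured lines, bounds from a listed 0 as open points and the range over the scalings tried as grey bars. All 15 higher miRNAs stay to the right of 0 under every scaling tried. The 15 lower ones could only stay to the left, since every scaling tried moved all ratios down.

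The let-7 family, which restrains growth-promoting genes such as Hmga2 and Ras, was the largest group in B16 exosomes, and its make-up differed from that of JB6 exosomes. All 9 members are listed in both libraries. Among them 8 had a higher call and 1 had neither, where 31.3% of all 300 and 55.9% of the frequent miRNAs had a higher call. The median log2 ratio was 3.22 beside 2.62 for the 131 miRNAs listed in both. The calls depended on the scaling, as TMM left 4 members higher and 1 lower. DESeq2 factors gave 4 higher and 2 lower members, and the authors' totals made 2 higher and 4 lower. let-7i-5p had 8014 reads against 40626 and was 19.4-fold higher (18.95 to 19.9), and let-7f-5p had 4327 against 10533 and was 40.4-fold higher (39.0 to 41.9). let-7b-5p had 476 against 58471, a ratio of 0.801 (0.731 to 0.877).

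Within the family let-7b-5p was the first member of JB6 exosomes, with 36.2% of the let-7 reads (35.9 to 36.4), and a minor one of B16 exosomes, with 2.74% (2.50 to 2.99). In B16 cells it held 3.25%. let-7f-5p was the reverse, with 24.9% in B16 exosomes (24.3 to 25.6), 6.52% in JB6 exosomes (6.40 to 6.64) and 16.6% in B16 cells. let-7i-5p held 46.1%, 25.1% and 43.8%, and let-7c-5p held 13.2%, 21.4% and 13.0%. As printed above, let-7b-5p and let-7c-5p differ by 1 substitution, G17A, and let-7a-5p and let-7f-5p by G12A (the first-named base belongs to the first-named miRNA). Reads that match several of them were divided by a rule not given in the sources used here.

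The group of miR-148a, miR-148b and miR-152 had the widest range of ratios among the shared seeds. These miRNAs act on DNA methyltransferases and cholesterol genes. miR-148b-3p, from an intron of Copz1, had 560 reads against 4189 and was 13.2-fold higher (12.0 to 14.4), and miR-152-3p, from an intron of Copz2, had 216 against 2120 and was 10.03-fold higher (8.68 to 11.5), while miR-148a-3p was lower. miR-148a-3p made up 99.4% of the group in JB6 exosomes (99.34 to 99.38), 11.2% in B16 exosomes (9.20 to 13.5) and 0.961% in B16 cells (0.897 to 1.03). miR-148a-3p and miR-148b-3p differ by C9U and U10C, just past the seed. The higher calls of miR-148b-3p and miR-152-3p did not survive the authors' totals, where the log2 ratios were -0.17 and -0.56.

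The seed of miR-25 and miR-92 held a second split. miR-92a-3p, a member of the growth-promoting miR-17-92 cluster, had 412 reads against 237054 and was 5.85-fold lower (5.31 to 6.45), and miR-92b-3p was at least 3.12-fold lower (limit 1.64-fold). miR-25-3p had 754 against 48780, a ratio of 1.52 (1.41 to 1.63), and miR-32-5p had 18 against 52 and was 34.1-fold higher (18.8 to 59.2). miR-25-3p led the group in B16 exosomes with 63.7% (60.9 to 66.4), against 16.9% in JB6 exosomes and 44.6% in B16 cells, and miR-92a-3p led it in JB6 exosomes with 82.1% (82.0 to 82.3), against 34.8% and 49.5%.

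In the miR-146 pair, which dampens innate immune signalling, miR-146a-5p had 181 reads against 3504 and was 5.08-fold higher (4.35 to 5.91), and miR-146b-5p had 105 against 72533 and was 7.02-fold lower (5.80 to 8.58). miR-146a-5p made up 63.3% of the pair in B16 exosomes (57.4 to 68.9), 4.61% in JB6 exosomes (4.46 to 4.76) and 75.2% in B16 cells. The pair differs by G18A and U21C. The higher call of miR-146a-5p ended with TMM, where its log2 ratio was -0.022.

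These 3 were the seeds with a higher and a lower member, among 23 seeds shared by 2 or more miRNAs. Only the 258 of the 300 miRNAs with a sequence were placed, and 64 of them shared a seed. In 6 seeds every member was higher, and in none was every member lower. The 6 were those of miR-30a, miR-30c and miR-30e, of miR-26, of miR-17, miR-20a, miR-93 and miR-106b, of miR-103 and miR-107, of miR-181, and of the 3p arms of miR-30a and miR-30e. With the authors' totals the miR-181 members turned negative, at log2 ratios from -2.83 to -0.71, and miR-181a-5p did so with TMM, at -1.31.

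**Figure D3:**
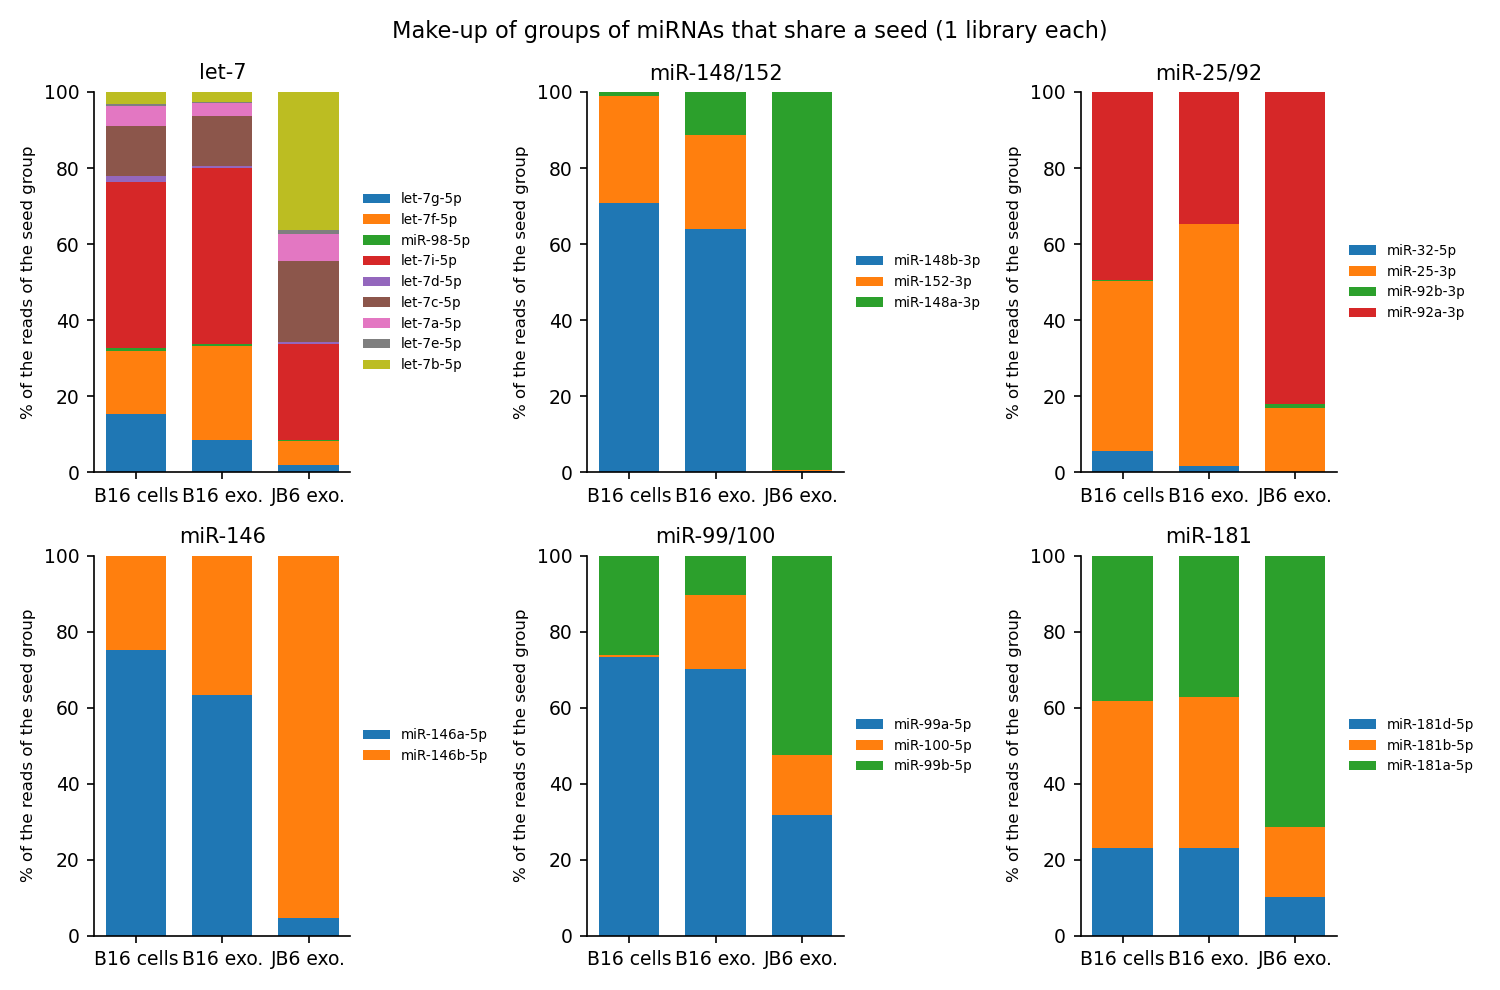
Percent of the reads of 6 groups of miRNAs that share a seed (y axis) in B16 cells, B16 exosomes and JB6 exosomes, 1 library each, with members as coloured segments. let-7b-5p, miR-148a-3p, miR-92a-3p and miR-146b-5p fill a larger part of their group in JB6 exosomes than in either B16 library.

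The miR-30 family, with roles in differentiation and autophagy, had 5 of 5 members higher, beside 31.3% over all 300 and 88 of the 131 listed in both libraries. Its median log2 ratio was 5.01, beside 2.62 over those 131. With TMM or DESeq2 4 members were higher and none lower, and with the authors' totals 3 higher and 1 lower. It held 8.92% of B16 exosome reads (8.66 to 9.18) and 0.700% of JB6 reads (0.692 to 0.707). miR-30a-5p, from chromosome 1, 23272269 to 23272339, plus strand and outside annotated genes, had 2331 reads against 7115 and was 32.2-fold higher (30.8 to 33.8). miR-30d-5p had 1475 against 23631 and was 6.14-fold higher (5.83 to 6.48). miR-30a-5p led in B16 exosomes with 57.2% of the family and miR-30d-5p in JB6 exosomes with 75.1%, and in B16 cells miR-30d-5p led with 57.6%. The DESeq2 log2 ratio of miR-30d-5p was -0.045.

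The families of miR-125, miR-99/100 and miR-10, of which only miR-10 is read from Hox clusters, went the other way relative to most miRNAs. Of 7 members none was higher, 3 were lower and 4 were neither, beside 11.7% lower over all 300 and 25.5% among the frequent miRNAs. The median log2 ratio was -0.90, and with TMM, DESeq2, the authors' totals or the total without tissue lists all 7 were lower. miR-10b-5p, linked to cell migration, had 1756 reads against 186628, a ratio of 0.926 (0.883 to 0.971). miR-99b-5p had 128 against 145468 and was 11.5-fold lower (9.71 to 13.8), and miR-125b-5p had 18 against 14498 and was 8.18-fold lower (5.18 to 13.8). miR-125a-5p had 19 against 13962 and was 7.47-fold lower (4.78 to 12.4). In the miR-99/100 seed group miR-99b-5p held 10.4% in B16 exosomes (8.78 to 12.3), 52.5% in JB6 exosomes and 26.1% in B16 cells. In the same order miR-99a-5p held 70.1%, 31.6% and 73.2%. miR-100-5p held 19.5%, 15.9% and 0.746%, so its part in B16 exosomes was nearer to that in JB6 exosomes than in B16 cells.

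miR-99b, let-7e and miR-125a are read from 1 cluster on chromosome 17, 17830194 to 17830876, plus strand, yet they did not move together. The 6 miRNAs of this cluster among the 300 gave 4 lower, 1 higher and 1 not resolved. let-7e-5p was the higher one, with 46 reads against 1702 and a 2.66-fold higher share (1.94 to 3.56), between the lower miR-99b-5p and miR-125a-5p. Its higher call ended under other scalings, with log2 ratios of -0.96 under TMM, -1.25 under DESeq2 and -2.48 under the authors' totals, the last 2 with a lower call. A spread was also seen in the cluster in an intron of Mcm7 (chromosome 5, 138165332 to 138165807, minus strand), where the ratio was 1.52 for miR-25-3p, 25.6 for miR-93-5p (21.4 to 30.6), 8.06 for miR-106b-3p (7.03 to 9.21) and 151 for miR-106b-5p (75.4 to 311). These ratios differ beyond their counting intervals whatever the total.

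miR-196b-5p, from the Hoxa9 locus (chromosome 6, 52230081 to 52230165, minus strand), and miR-196a-5p, both repressors of Hox genes, differ by the substitution A12C read from miR-196a-5p. miR-196b-5p had 44 reads against 27 and was 160-fold higher (97.1 to 269). miR-196a-5p had a listed 0 against 501 reads and was not resolved. miR-196b-5p held 5.11% of the reads of the pair in JB6 exosomes (3.40 to 7.35) and 99.8% in B16 cells.

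A list of 12 miRNAs, drawn up as melanoma-associated, was written with earlier results of these data known. It includes miR-690, which was among the higher calls, so its counts are no test. Of the 12, 8 were higher, 1 was lower, 1 was neither and 2 were not resolved, beside 31.3% higher and 11.7% lower over all 300. Of the 131 listed in both libraries 88 were higher and 18 lower. With TMM 4 of the 12 were higher and 4 lower, and with the authors' totals 3 and 7. miR-21a-5p, raised in many tumours, had 1666 reads against 40274 and was 4.07-fold higher (3.88 to 4.28), with a log2 ratio of -0.34 under TMM. miR-221-3p, a repressor of Kit and p27, had 42 against 3614, a ratio of 1.14 (0.823 to 1.55), and miR-222-3p had 11 against 3148 and was 2.91-fold lower (1.62 to 5.83). miR-155-5p, induced in activated lymphocytes and macrophages, was listed at 0 in B16 exosomes and not resolved, with 19.6 RPM in JB6 exosomes. miR-143-3p, the leading mesenchymal miRNA, had 3478 against 144649 and was 2.37-fold higher (2.29 to 2.45), with a log2 ratio of -1.12 under TMM.

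In the list of miR-17-92 and related clusters 6 of 10 members were higher, 2 lower, 1 neither and 1 not resolved. Over all 300 these were 31.3% higher and 11.7% lower, and of the 131 listed in both libraries 88 were higher and 18 lower. TMM and DESeq2 each made 6 of the 10 higher and 3 lower, and the authors' totals 3 and 3. The sum of the list was 3.54% of B16 exosome reads (3.38 to 3.72) and 6.46% of JB6 reads (6.44 to 6.48), of which miR-92a-3p was the larger part. miR-20a-5p had 154 reads against 668 and was 22.7-fold higher (18.9 to 27.1). Of the miR-23/27/24 clusters 2 of 5 members were higher and 3 neither, with TMM 2 higher and 3 lower, and with DESeq2 or the authors' totals 1 and 3. miR-24-3p, with 186 against 26732 and a ratio of 0.685 (0.590 to 0.791), is uncertain because the hairpin of miR-3074 overlaps it on the other strand and no source used here says whether counting used strand. The lower miR-3074-5p is uncertain for the same reason.

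Markers of blood leukocytes and vessels were few. Of 6 leukocyte miRNAs 3 reached 30 reads, of which miR-146a-5p was higher and the others were not resolved, and no leukocyte miRNA other than miR-146a-5p was listed above 0 in B16 exosomes. miR-126a-3p, of endothelium, had 40 reads against 1815 and was 2.17-fold higher (1.54 to 2.97), with a log2 ratio of -1.25 under TMM.

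Several further families lay near the middle. miR-151-3p, from an intron of the focal adhesion kinase gene, had 870 reads against 132689, a ratio of 0.645 (0.603 to 0.690). miR-34c-5p, a target of p53, had 16 against 1657, a ratio of 0.9504 (0.542 to 1.55). miR-29a-3p, a repressor of collagens, had 85 against 1685 and was 4.97-fold higher (3.94 to 6.18), and miR-532-5p had 294 against 13780 and was 2.10-fold higher (1.87 to 2.36). Their log2 ratios were -0.056 and -1.30 under TMM. Of 5 miRNAs made without Drosha or Dicer, miR-320-3p was lower and miR-484 higher, with 27 reads against 1038 (2.56-fold, 1.68 to 3.75) and a log2 ratio of -1.01 under TMM. The H19 and Igf2 miRNAs, of imprinted growth genes, and the miR-290 and miR-302 clusters of embryonic stem cells were listed at 0 in B16 exosomes and had 12 and 33 reads in JB6 exosomes.

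**Figure D4:**
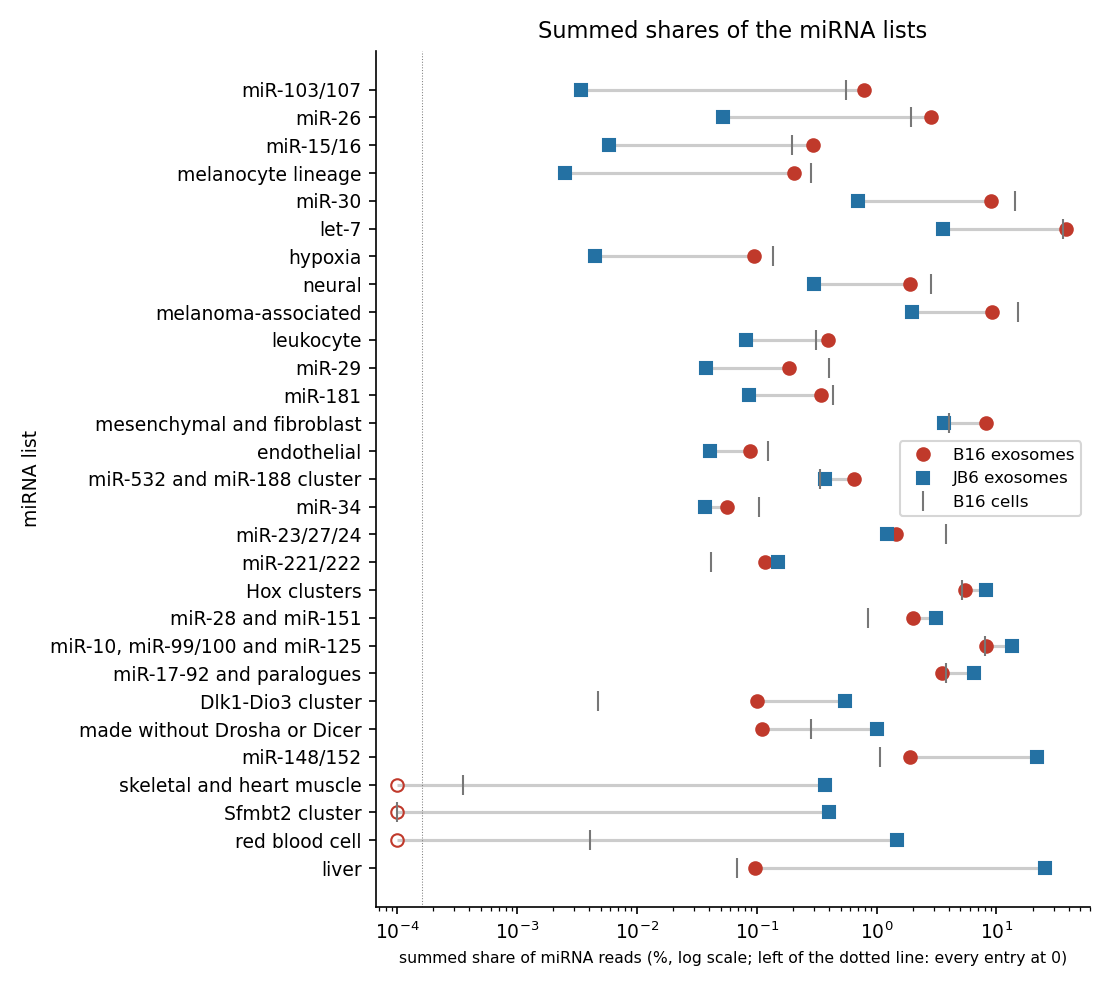
Summed share of the miRNA reads (x axis, percent, log scale) of the miRNA lists that reached 0.05% in either exosome library, for B16 exosomes (circles), JB6 exosomes (squares) and B16 cells (ticks), with open symbols where every entry was at 0. The let-7 list stands at 38.0% against 3.60% and the liver list at 0.0963% against 25.2%.

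The 2 arms of a hairpin were counted in the same library, so their ratio is free of the total. Arms were paired by name, and where a name covers several loci their reads are pooled. Of 68 hairpins with 30 or more reads over both arms in each library, the ratio of 5p to 3p reads was at least 2-fold higher in B16 exosomes with an interval that excluded 1 in 7 (10.3%) and at least 2-fold lower in 5 (7.35%). It was neither in 1, miR-30e, and not resolved in 55, in each of which an arm was listed at 0 in B16 exosomes. The arm with more reads differed between the libraries in 5 hairpins, which were let-7d, miR-145a, miR-423, miR-342 and miR-23b.

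The let-7d hairpin, in an exon of the long non-coding RNA 6720427I07Rik (chromosome 13, 48536012 to 48536114, minus strand), had 98 reads on the 5p and 28 on the 3p arm in B16 exosomes, and 1033 and 55565 in JB6 exosomes. The 5p arm, which carries the let-7 seed, made up 77.8% of its reads in B16 exosomes (69.5 to 84.7), 1.83% in JB6 exosomes (1.72 to 1.94) and 90.4% in B16 cells. let-7d-3p, which has a different seed, was by itself 20.2-fold lower (13.9 to 30.3), and let-7d-5p 9.34-fold higher (7.51 to 11.5). The miR-423 hairpin turned in the opposite sense. Its 5p arm made up 26.4% in B16 exosomes (18.4 to 35.6), 98.0% in JB6 exosomes (97.97 to 98.10) and 18.5% in B16 cells, from 29 reads on 5p and 81 on 3p in B16 exosomes.

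For miR-145a the 5p arm had 117 reads and the 3p arm a listed 0 in B16 exosomes, against 51 and 605 in JB6 exosomes, where the 5p arm was 7.77% (5.84 to 10.1). For miR-342, from an intron of Evl (chromosome 12, 108658620 to 108658718, plus strand), and for miR-23b the 3p arm alone was listed in B16 exosomes, with 45 and 54 reads. In JB6 exosomes the 5p arm of these made up 71.1% (67.1 to 74.8) and 82.2% (74.5 to 88.3). In B16 cells it made up 78.9% for miR-145a, 3.42% for miR-342 and 1.30% for miR-23b, so in all 5 the arm that led in B16 exosomes led in B16 cells too.

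The other differing hairpins kept their major arm. The 5p arm of miR-9 was the sole listed arm in B16 exosomes and made up 70.7% in JB6 exosomes (66.2 to 75.002). That of miR-106b held 8.95% (5.76 to 13.1) against 0.522%, that of miR-30a 89.7% (88.5 to 90.9) against 79.0%, and that of miR-199a 15.3% (8.40 to 24.7) against 6.23%. The 3p reads of miR-199a are shared with the identical miR-199b-3p, so this ratio is uncertain. The 5p arm of miR-143 held 0.315% against 0.0263%. In miR-99b it fell short of JB6, at 87.1% (80.55 to 92.04) against 97.4%, as in miR-340, at 79.8% (69.9 to 87.6) against 95.4%.

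**Figure D5:**
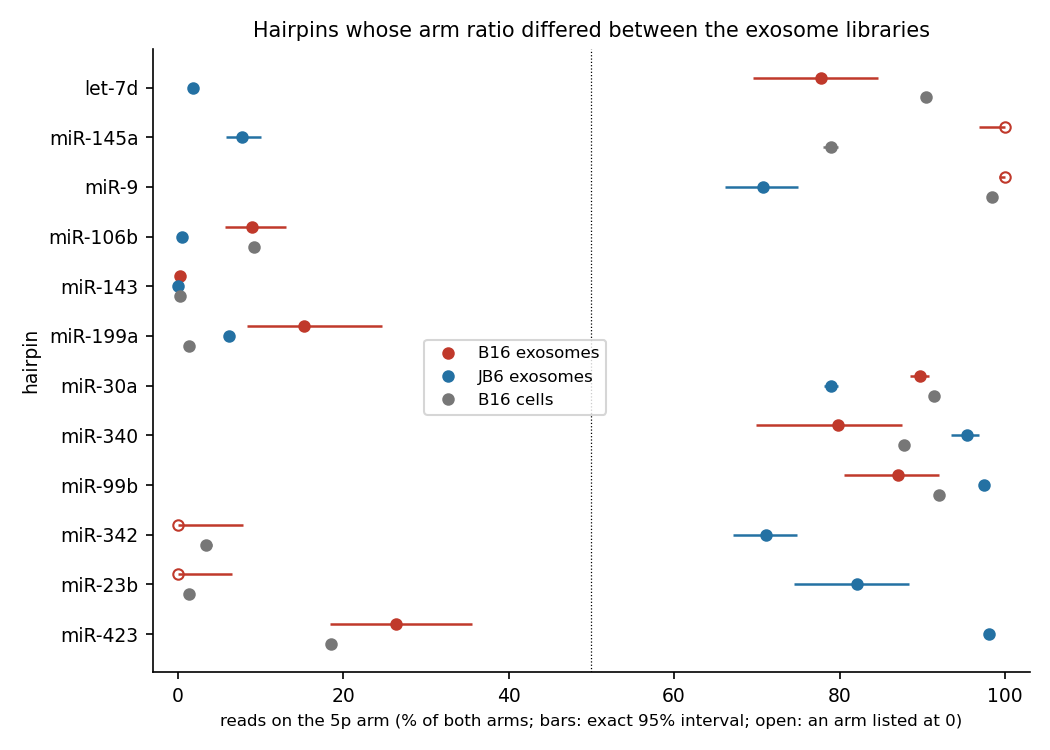
Reads on the 5p arm as a percent of both arms (x axis) in the 12 hairpins whose arm ratio differed, for B16 exosomes, JB6 exosomes and B16 cells, with exact 95% intervals as bars and open points where an arm was listed at 0. let-7d and miR-145a lie right of the 50% line in both B16 libraries and left of it in JB6 exosomes, and miR-423, miR-23b and miR-342 the reverse.

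Base composition differed between the groups of calls. Of the higher miRNAs 84 of 94 had a sequence, with a median GC content of 45.5%, and of the lower ones 28 of 35, with a median of 54.5%. Those that were neither had a median of 50%. The interquartile range ran from 40.9 to 52.2% in the higher and from 49.4 to 59.1% in the lower group, so the groups overlapped. Over 115 miRNAs listed in both libraries with a sequence, Spearman's rho of log2 ratio and GC content was -0.27 and Pearson's r was -0.18, as a description across miRNAs of the same pair of libraries. The median length was 22 bases in each group, and the part of base composition in the ratios was not tested.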

How the data were processed

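Per the labels' protocols, exosomes were collected by ultracentrifugation, RNA was taken with Trizol and libraries were made for Illumina sequencing. Build mm10 and the tools bcl2fastq and BWA are named in the submitters' processing notes. Annotation release, strand use and the handling of multi-matching reads: not given in the sources used here. The authors deposited a raw count of reads per mature miRNA, not normalized. They also deposited RPM values, each the count times a constant whose total exceeds the miRNA reads, at 847694 (B16 exosomes) and 5626936 (JB6 exosomes). The reads behind that total were not analysed here.

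Shares were taken of the summed miRNA counts. Ratios carry exact conditional binomial 95% intervals and shares Clopper-Pearson intervals, for counting error only. A listed 0 was set to 9 reads. With 1 library a side no test across libraries was possible. The script was tested on simulated data. The 300 miRNAs, the 32 lists and the comparison were chosen with earlier results of these data known, and the make-up of seed groups, the sequence pairs, the clusters and the levels by call were added after values were seen. The medians of lists were planned over all members, and are given where no member had a listed 0, since such a ratio depends on the fixed 9 reads. The text names the 10 leading miRNAs of either exosome library, the 15 highest and 15 lowest by the interval limit nearest to 1 among calls with 100 or more reads in the library with more, up to 4 of each list, 8 hairpins each way, and miR-211-5p, miR-21a-5p, miR-155-5p and miR-690. Further miRNAs were picked with their values in view. Alternatives tried were TMM (edgeR 4.0.16) and DESeq2 1.42.0 factors in R 4.3.3, totals without the most abundant or tissue miRNAs, the authors' totals, other minimums, fold sizes and shares, listed 0s left out, and identical entries merged. Python 3.11.15 with numpy 2.4.6, pandas 2.3.3, scipy 1.17.1 and matplotlib 3.10.9 was used.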

Additional observations from a re-analysis of the deposited data

Results flagged for a closer look

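Reads outside the miRNA counts stood behind the totals of the authors' RPM values, and no comparison above uses them. They made up 94.6% of that total in B16 exosomes and 20.1% in JB6 exosomes. miRNA reads were the remaining 5.39% and 79.9%, beside 90.9% in B16 cells.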

How the results depend on the processing

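Scaling moved the counts most. Of the frequent miRNAs 36 were higher and 49 lower with TMM, 34 and 51 with DESeq2, 24 and 62 with the authors' totals, and 40 were lower without the tissue lists, where 54 of the 300 were lower. TMM gave 61 and 97 of the 300, DESeq2 57 and 108, and the authors' totals 40 and 153. With listed 0s left out 18 were lower, and at a share of 0.5% or more 23 of 46 were higher and 13 lower. The 12 of 68 differing hairpins became 8 of 35 at a minimum of 100 reads over both arms, and 10 of 68 with a 4-fold rule. With listed 0s left out they were 8 of 9, so the share over 68 depends on the listed 0s. Of the 94 higher calls 19 turned to a negative log2 ratio with TMM, 23 with DESeq2 and 39 with the authors' totals. let-7e-5p was among them. No negative ratio could turn positive, since every scaling tried moved the ratios down. Of the 25 that were neither 10 turned negative with each of the 3, such as miR-25-3p from 0.61 to -1.76, -2.06 and -3.28, miR-27b-3p from 0.56 to -1.81, -2.10 and -3.33, and miR-221-3p from 0.19 to -2.17, -2.47 and -3.70. Among the higher calls chosen by the naming rule, the ratios with TMM, DESeq2 and the authors' totals in turn were -1.12, -1.42 and -2.65 for miR-143-3p, -0.34, -0.64 and -1.86 for miR-21a-5p, -1.31, -1.60 and -2.83 for miR-181a-5p, -0.056, -0.35 and -1.58 for miR-29a-3p, -1.30, -1.59 and -2.82 for miR-532-5p, -1.25, -1.55 and -2.77 for miR-126a-3p, -0.022, -0.32 and -1.54 for miR-146a-5p, -1.20, -1.50 and -2.73 for miR-379-5p, and -1.01, -1.31 and -2.53 for miR-484. With DESeq2 miR-30d-5p was at -0.045, and with the authors' totals at -1.27. With the authors' totals alone let-7c-5p was at -1.18, miR-23a-3p at -0.38, miR-181b-5p at -0.78, miR-181d-5p at -0.71, miR-148b-3p at -0.17 and miR-152-3p at -0.56, and the medians were -0.67 for let-7, -0.78 for miR-181 and -0.56 for the miR-148a group. The miR-23/27/24 median was 0.56 and turned to -1.81, -2.10, -3.33 and, without the tissue lists, -0.40. The cause of these changes is the shift that each scaling gives every ratio. No paired analysis was possible because each group had 1 library. Depth limits the B16 exosome library, where 10 reads equal 219 RPM.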

Other observations

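Some miRNAs of no list were also far apart. miR-6538 had 464 reads in B16 exosomes and 1458 in JB6 exosomes, 31.3-fold higher (28.2 to 34.8), and stood at 16.9 RPM in B16 cells. miR-1198-5p, from an intron of Gripap1 (chromosome X, 7807101 to 7807221, plus strand), had 35 against 33803 and was 9.81-fold lower (7.05 to 14.1). miR-125b-1-3p was listed at 0 against 7084 RPM, at least 36.0-fold lower (limit 18.9-fold). miR-378a-3p, a miRNA of mitochondrial metabolism, had 999 against 51099, a ratio of 1.92 (1.81 to 2.05), just short of the 2-fold rule. Its log2 ratio of 0.94 turned to -1.42 under TMM, -1.72 under DESeq2 and -2.95 under the authors' totals. miR-191-5p and miR-425-5p, which are neighbours on chromosome 9, were 6.34-fold (5.06 to 7.86) and 37.3-fold (26.1 to 52.6) higher. The higher call of miR-191-5p ended under TMM (log2 ratio 0.30) and DESeq2 (0.0), and its log2 ratio turned to -1.23 under the authors' totals, a lower call. The log2 ratio of miR-425-5p was 2.85, 2.56 and 1.33, higher in each.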
